A study of Mus musculus with 30 samples.

Results

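The acute phase genes and the IL-6/STAT3 signalling genes described here are 10 members, Lcn2, Saa1, Saa2, Saa3, Hp, Ptx3, Il6, Lif, Socs3 and Stat3, of 78334 gene identifiers in the deposited count table. They were found by matching Ensembl gene identifiers to mouse symbols. They were picked because Lcn2 and Saa3 rose from near zero in cells that overexpress CASC15, a long noncoding RNA. That comparison is therefore described for these 10 genes without a test, and the other comparisons were tested.

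RNA was sequenced (paired reads of 75 bp) from 30 libraries of cells labelled as cultured murine aortic smooth muscle cells, in 9 groups and 2 sequencing runs, to follow what knockdown or overexpression of CASC15 does to these cells with and without growth factors. Per the labels, all cells spent 48 h in serum-free medium and were transfected for at least 24 h, so every control carries a transfection too. Knockdown used a GapmeR, an antisense oligonucleotide that directs RNase H to its target RNA, and overexpression used a plasmid. In run 2, untreated cells received a control GapmeR (2 libraries), a GapmeR against total CASC15 (2), a control plasmid (3) or a plasmid for total CASC15 (3). In run 3, cells received the control GapmeR and no treatment, human angiotensin II at 10 ng/ml or human PDGF-BB at 10 to 30 ng/ml for 24 h, or a GapmeR against long CASC15 with no treatment or with angiotensin II, with 4 libraries in each of these 5 groups. What distinguishes "total" from "long" CASC15 is not spelled out in the labels. No genotype, age or donor is given, and the protocol mentions mouse and rat cells. Each library also carries a batch label, P16 to P19, that goes with its replicate number (in run 2 the numbers start at P17, in run 3 at P16). No label says that replicates came from separate animals or cultures, so p-values measure the spread between these libraries only.

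In the acute phase response, inflammatory signals such as IL-1, TNF and bacterial products act through NF-kB, and cytokines of the IL-6 family act through the shared receptor chain gp130 (Il6st), the JAK kinases and the transcription factor STAT3. STAT3 together with NF-kB and C/EBP proteins raises transcription of secreted defence proteins in the liver and, for several of them, in other cells. STAT3 also induces SOCS3, which binds gp130 and the JAKs and dampens the same pathway. In vascular smooth muscle, IL-6 is a known secreted product of inflamed or injured cells.

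Total counts per library ran from 18007199 to 21881959 in run 2 and from 15771490 to 30362047 in run 3. Levels are given as CPM (counts scaled to a common library total, after TMM scaling, which aligns the bulk of genes between libraries of a run), so levels set across the runs were not tested. The gene read as CASC15, 2610307P16Rik, was at 604 to 916 CPM with the overexpression plasmid and at 4.03 to 8.69 with the control plasmid. In run 3 it was at 4.94 to 6.01 CPM in untreated controls and at 2.15 to 3.48 with the GapmeR against long CASC15. With PDGF-BB it was at 2.95 to 4.82 CPM, in mean 65.3% of untreated controls (edgeR adjusted p = 0.0101). It was not lower in the 2 libraries labelled total knockdown (8.29 and 9.73 CPM) than in their controls (6.37 and 7.66 CPM), so any direction drawn from that label is uncertain. The 9 smooth muscle markers went partly with the label and partly against it, and summed to 711 to 1270 CPM in single libraries. Group means of Cald1 were 466.8 to 738.6 CPM, of Acta2 108.5 to 254.1, of Smtn 46.66 to 95.5 and of Tpm2 31.5 to 55.62, but Tagln was at most 3.254 CPM, Myh11 at most 5.493 and Cnn1 at most 0.1621. The 5 fibroblast markers summed to 2610 to 4220 CPM, nearly all Col1a1 and Dcn, with Dpt at most 0.487 and Lum at most 3.828 in group means.

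Bases before the annotated start are shown for the 2 acute phase genes that led the choice, for Il6 and for Socs3, because these genes sit at different steps of the pathway. Each run is 250 bases long, 5′ to 3′ on the gene's strand, from RefSeq (GRCm38.p6), and capitals mark matches to the motifs searched. Lcn2 (chr2:32387740-32387989, minus strand) and Saa3 (chr7:46715677-46715926, minus strand) have a C/EBP match, Il6 (chr5:30012864-30013113, plus strand) a C/EBP and an NF-kB match, and Socs3 (chr11:117969367-117969616, minus strand) a STAT match.
Lcn2: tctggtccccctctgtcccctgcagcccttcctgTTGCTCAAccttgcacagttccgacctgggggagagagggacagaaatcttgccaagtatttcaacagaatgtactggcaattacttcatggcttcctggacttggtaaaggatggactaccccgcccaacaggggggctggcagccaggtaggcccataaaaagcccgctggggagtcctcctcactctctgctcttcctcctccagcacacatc
Saa3: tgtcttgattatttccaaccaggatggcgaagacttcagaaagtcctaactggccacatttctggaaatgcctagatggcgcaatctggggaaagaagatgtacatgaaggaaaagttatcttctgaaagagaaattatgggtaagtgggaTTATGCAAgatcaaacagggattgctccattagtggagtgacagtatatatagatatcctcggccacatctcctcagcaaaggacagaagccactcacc
Il6: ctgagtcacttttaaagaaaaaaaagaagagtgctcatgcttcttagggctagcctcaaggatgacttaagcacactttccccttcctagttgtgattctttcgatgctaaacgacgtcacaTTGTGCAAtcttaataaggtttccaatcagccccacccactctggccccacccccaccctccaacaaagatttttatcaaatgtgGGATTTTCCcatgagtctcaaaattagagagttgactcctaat
Socs3: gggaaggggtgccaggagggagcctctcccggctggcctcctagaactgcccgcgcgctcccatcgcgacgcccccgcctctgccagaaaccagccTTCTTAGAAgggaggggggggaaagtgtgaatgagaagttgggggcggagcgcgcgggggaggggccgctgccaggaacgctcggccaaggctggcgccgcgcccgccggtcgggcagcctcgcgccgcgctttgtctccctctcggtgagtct

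The letters searched on both strands were TTCNNNGAA for STAT, TTGCNNAA for C/EBP, GGANNNTCC for NF-kB and TATAAA for a TATA box. Of the 10 genes, 9 had an entry in the RefSeq promoter table, all but Hp. The C/EBP letters stood before 6 of these 9 starts (Lcn2, Saa1, Saa2, Saa3, Il6 and Ptx3), and before 9.56% of 32851 promoters in the table. The bases before Saa1 and Saa2 are near-identical, with the match at 182 to 175 and 183 to 176, so these are not separate matches. Of the other letters, NF-kB stood before Il6 and Stat3 (7.27% of all promoters), STAT before Socs3 (7.02%), and TATAAA before none of the 9 (12.4%). No match overlapped another in these genes. In Il6 the NF-kB letters lay 43 to 35 bases and the C/EBP letters 128 to 121 bases before the start. A match describes letters only.

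**Figure D1:**
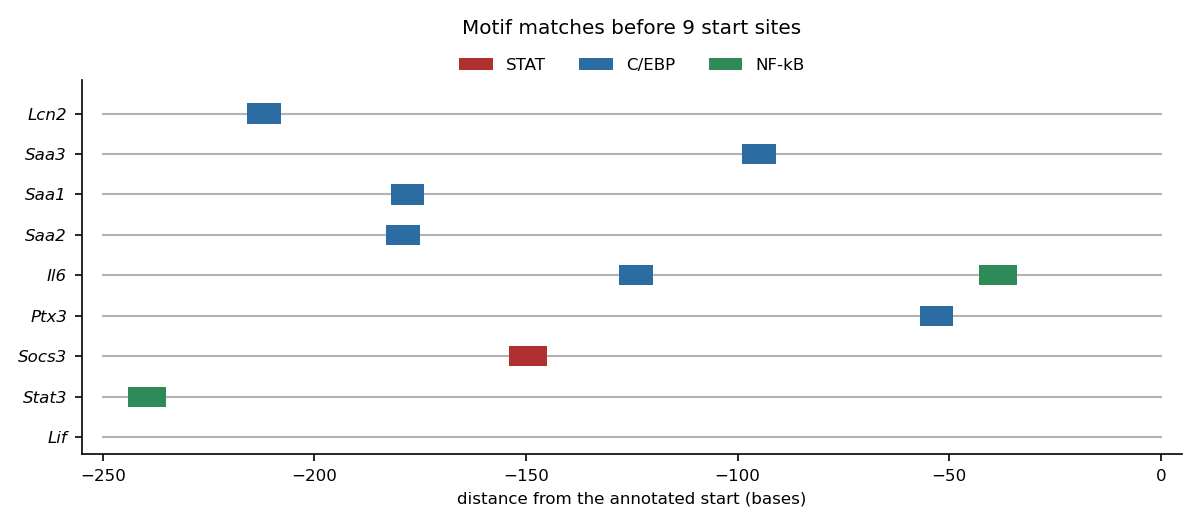
Matches to the C/EBP, NF-kB and STAT letters in the 250 bases before the annotated start of 9 genes, by distance from the start in bases. The C/EBP match lies 216 to 209 bases before the start of Lcn2 and 99 to 92 bases before that of Saa3, and Lif has no match.

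Saa1, Saa2 and Ptx3 were at or near zero in all 30 libraries and passed the filter on low counts in neither run. Saa1 and Saa2, which encode circulating serum amyloid A of the liver, reached at most 2 counts in any library, both in replicate 3 of overexpression. They are near-identical copies between which RSEM must divide reads, so their split is uncertain. Ptx3, a soluble pattern recognition protein, reached at most 7 counts. Its counts were 6, 0, 2 and 7 in the untreated long knockdown and 1, 0, 0 and 2 in the untreated control, a ratio of 5.99 with an exact 95% interval of 1.7 to 32.3 that covers counting error only. No model test was run on Ptx3.

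The other members differ widely in level. Per kb of exon, mean Stat3 ran from 22.5 to 32.4 CPM per kb over the 9 groups, Socs3 from 6.79 to 11.1 and Lif from 2.69 to 6.05. By the same measure, Hp ran from 1.24 to 23.8 CPM per kb and Il6 from 0 to 1.28. Lcn2, at 0.00721 CPM per kb with the control plasmid, was at 82.5 in overexpression, above Stat3 at 31.5 in the same libraries. In untreated run 3 controls the order was Stat3 (32.2 ± 3.14, SD), Socs3 (11.1 ± 2.66), Hp (6.26 ± 1.09), Lif (3.22 ± 0.29), Il6 (1.04 ± 0.286) and Lcn2 (0.438 ± 0.203, n = 4 each).

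**Figure D2:**
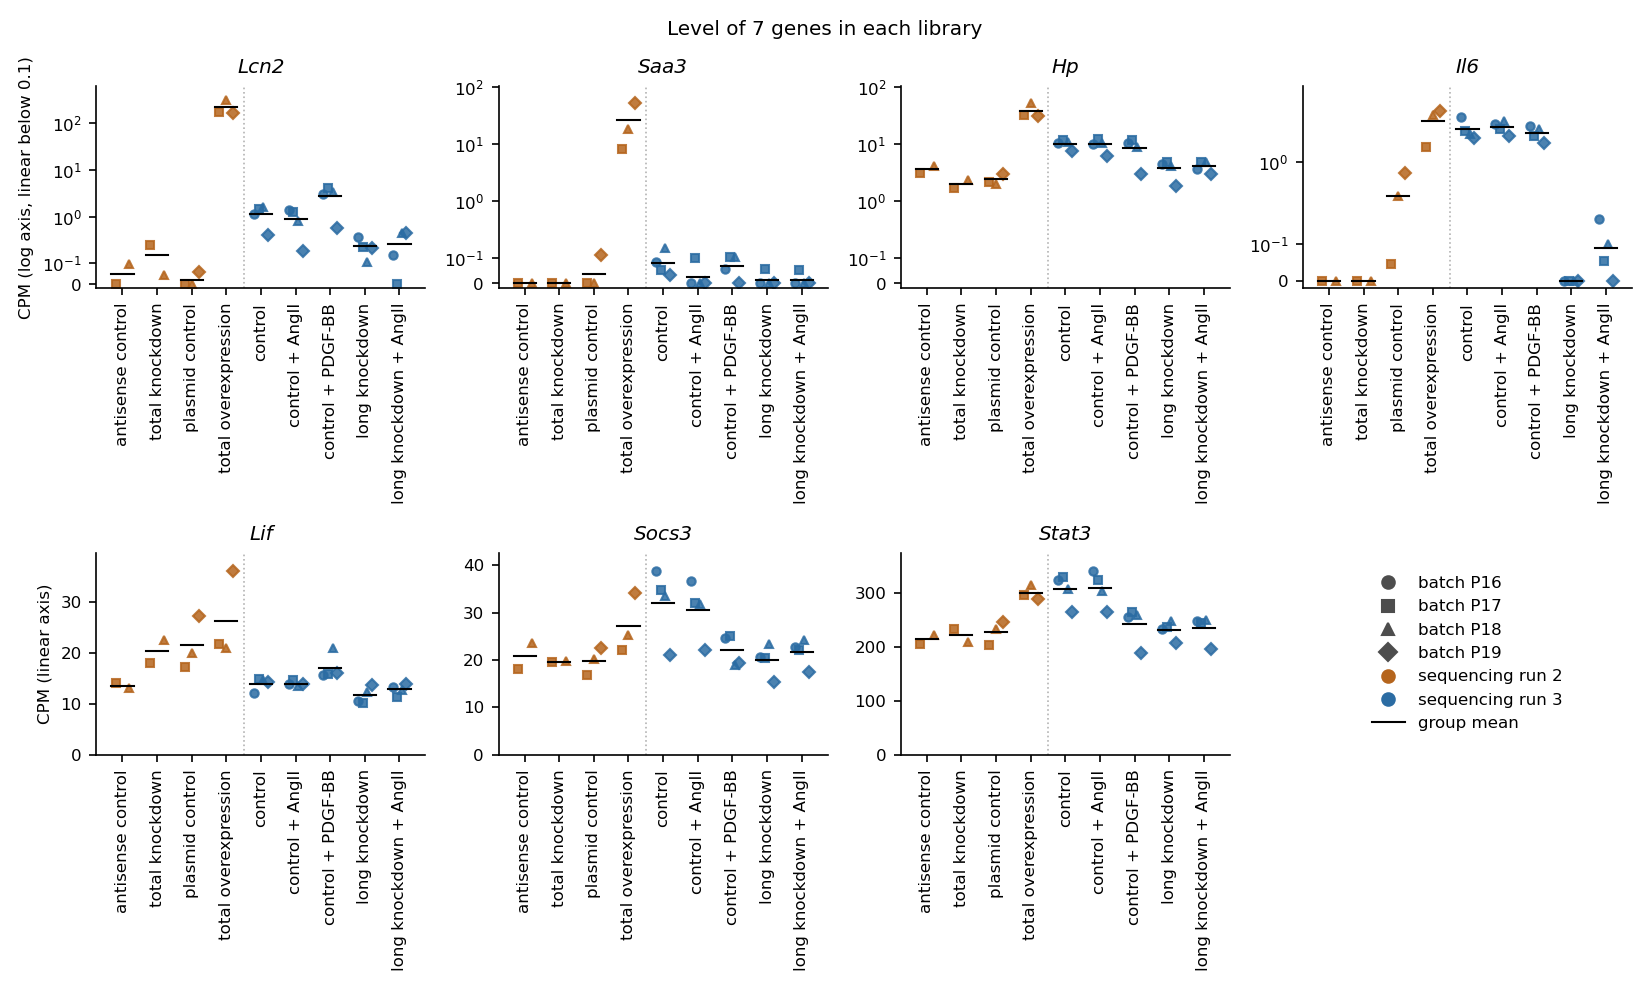
Level in CPM of 7 genes in each of 30 libraries, by group, with marker shape for batch, colour for run and a line for the group mean; the upper panels have a log axis that is linear below 0.1, and the lower panels a linear axis from 0. Lcn2 lies between 164 and 310 CPM in overexpression and at or below 4.11 CPM in every other library.

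Lcn2, the iron-withholding protein lipocalin 2, had 0, 0 and 1 counts in the 3 control plasmid libraries and 3507, 5178 and 3164 counts with the CASC15 plasmid, where it was at 175, 310 and 164 CPM. The ratio was 12300 and rests on 1 control count. Its exact 95% counting interval, 2200 to 485000, covers counting error in these libraries and is no test between the plasmids. Saa3, a serum amyloid made by macrophages, fat and other cells outside the liver, had 0, 0 and 2 counts with the control plasmid and 162, 315 and 1018 with the CASC15 plasmid (8.09, 18.8 and 52.9 CPM), a ratio of 775 (214 to 6400). All 3 overexpression libraries were far above all 3 controls for both genes. The spread of Saa3 inside the overexpression group, 26.61 ± 23.39 CPM (SD, n = 3), was nearly as large as its mean.

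Hp, which encodes the haemoglobin-binding acute phase protein haptoglobin, was at 2.16, 1.98 and 3 CPM with the control plasmid and at 31.8, 51.8 and 31.3 with the CASC15 plasmid, 16.1-fold higher in mean. Il6, the cytokine itself, was at 0.045, 0.385 and 0.737 CPM with the control plasmid and at 1.5, 3.65 and 4.16 with the CASC15 plasmid, 7.97-fold higher. Stat3 was at 204, 234 and 246 CPM against 297, 315 and 289, 1.32-fold higher. The libraries of both groups did not overlap for Hp, Il6 or Stat3.

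Lif, another cytokine that signals through gp130, was at 17.2, 20 and 27.3 CPM with the control plasmid and 21.8, 21 and 36.1 with the CASC15 plasmid. Socs3, the feedback inhibitor, was at 16.8, 20.3 and 22.5 CPM against 22.1, 25.2 and 34.2. For these 2 genes the groups overlapped, although each overexpression library was above the control of its own batch in all 3 batches. In all, 5 of the 7 members in the fit were higher without overlap, where 9.61% of 15350 genes were. Since the members were chosen on this contrast, and Lcn2, Saa3 and Il6, 3 of these 5, passed the filter only through their overexpression libraries, the count is a description.

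In the same comparison, genes of the pathway that are not members were tested with edgeR, and 20 of 78 tested pathway genes were called higher and 1 lower at an adjusted p under 0.05, beside 1.65% of all genes called in either direction. These lists were written with results of this contrast known. Their median log2 fold change was 0.42, against 0.00 over all genes. With the replicate block 35 were higher and 2 lower (47.4% of the lists), where 17.7% of all genes were called. Leaving out 1 library gave 7 to 30 called in all: 7 without control plasmid replicate 2, 9 without overexpression replicate 2 and 10 without control plasmid replicate 1.

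Of 9 tested ligands and receptors of the IL-6 family, 3 were called higher and 0 lower, with a median log2 fold change of 0.11. Il6st (gp130) was at 1332 ± 245.7 CPM against 768.3 ± 69.9 (SD, n = 3 each; log2 fold change 0.79, edgeR adjusted p = 0.0299), Il6ra, the IL-6 binding chain, at 37.59 ± 2.564 against 22.82 ± 3.194 (edgeR adjusted p = 0.0259), and Osmr, the oncostatin M receptor, at 197.9 ± 50.31 against 67.78 ± 28.74 (edgeR adjusted p = 0.0474). These 3 calls were lost when single libraries were left out, with edgeR adjusted p up to 0.122, 0.121 and 0.182. Among the 22 tested JAK, STAT and inhibitor genes, the SOCS family member Cish was the only call, 4.79-fold higher (edgeR adjusted p = 0.0202; up to 0.0914 without 1 library).

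Of 18 tested textbook STAT3 targets, 4 were called higher. Cebpd, a C/EBP transcription factor of the acute phase, was at 272.7 ± 31.9 CPM against 41.97 ± 15.2 (6.5-fold; edgeR adjusted p = 0.000752). Bcl3, a nuclear cofactor of NF-kB, was at 45.19 ± 0.8587 against 9.749 ± 0.9152 CPM (4.64-fold; edgeR adjusted p = 2.75e-05), and the adhesion molecule Icam1 at 37.75 ± 9.553 against 10.32 ± 3.3 (3.66-fold; edgeR adjusted p = 0.00986, and 0.0527 at most without 1 library).

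The other acute phase genes had 6 higher and 1 lower of 17 tested, with a median log2 fold change of 1.06. The metalloreductase Steap4 rose 120-fold, from 0.8888 ± 0.5561 to 107.1 ± 22.64 CPM (edgeR adjusted p = 3.35e-05). C3, the central complement protein, rose 31.3-fold to 2501 ± 854 CPM (edgeR adjusted p = 0.00106), and Cfb, a complement protease, 8.36-fold (edgeR adjusted p = 0.0442; up to 0.163 without 1 library). Agt, which encodes angiotensinogen, fell to 0.7792 ± 0.2443 CPM from 3.121 ± 0.9458 (edgeR adjusted p = 0.0193; up to 0.0992 without 1 library).

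Of 12 tested genes of the IL-1, TNF, TLR and NF-kB inputs, 6 were higher and none lower. Tlr2, a receptor for bacterial lipoproteins, was 4.12-fold higher (edgeR adjusted p = 0.00106). Nfkbiz, a nuclear cofactor that NF-kB induces, was 3.56-fold higher (edgeR adjusted p = 0.00464), and Nfkbia, the inhibitor that NF-kB induces in feedback, 3.22-fold higher (edgeR adjusted p = 0.000715).

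Markers of cells that could carry these genes were read in the same libraries. Of 7 neutrophil markers, 4 were at 0 in every overexpression library, and their summed level was 0 to 0.208 CPM, against 0 to 0.0567 with the control plasmid. The 7 macrophage markers summed to 18.1 to 23.5 CPM against 11.4 to 12.8. Adgre1 was at 0 in every library of both plasmid groups, Ptprc was at most 0.0998 CPM, and most of the sum was Cd14 (18.77 against 10.71 CPM; edgeR adjusted p = 0.0262). Hepatocyte markers summed to 1.5 to 4.07 CPM against 0.991 to 1.87, with Alb at most 0.0998. Of 8 tested smooth muscle markers, Myl9 was lower (2.267 against 5.604 CPM; edgeR adjusted p = 0.0193) and 0 were higher. Epithelial markers, mostly Cdh1, summed to 66.4 to 150 CPM against 44.6 to 64.1, and endothelial markers to 0.624 to 1.14 against 1.13 to 2.26. The part of the Cd14, Myl9 and Cdh1 differences in these results was not tested. In bulk RNA, more cells that express a gene and more RNA per cell cannot be told apart.

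The control plasmid itself was compared with the control GapmeR, which shares its libraries with the overexpression contrast. Of the 4 members that pass the filter on low counts without the overexpression libraries (Hp, Lif, Socs3 and Stat3), 0 were called, where 1.18% of genes were. The other 3 (Lcn2, Saa3 and Il6) were also fitted and not called, but passed the filter only through overexpression. Il6 and Lif passed an unadjusted p of 0.05. Il6 had 0 counts in both GapmeR controls and 1, 7 and 13 counts with the plasmid, and 1 of these 3 libraries lies under the 3 counts that a count of 0 allows (edgeR adjusted p = 0.39; 0.000305 with no filter on low counts). Lif was at 21.5 ± 5.18 CPM (n = 3) against 13.56 ± 0.6014 (n = 2; edgeR adjusted p = 0.503).

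Among pathway genes of that comparison, 5 of 78 were higher and 0 lower. Stat2, a transcription factor of interferon signalling, was at 462.9 ± 134.5 CPM against 32 ± 7.765, 14.5-fold higher (edgeR adjusted p = 0.000138). Socs1, an inhibitor of JAK kinases, was 2.89-fold higher (edgeR adjusted p = 0.0349), the TLR adaptor Myd88 1.77-fold (edgeR adjusted p = 0.0135) and Cfb 48.1-fold (edgeR adjusted p = 0.0391; 0.135 with the replicate block). The calls of Socs1, Cfb and Myd88 were lost without single libraries (edgeR adjusted p up to 0.469, 0.502 and 0.22). Stat3 was at 228.1 ± 21.77 against 214.3 ± 11.84 CPM. Its log2 difference was 0.09 with a standard error of 0.117.

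In the libraries labelled total knockdown, 0 of the same 4 members were called, where 2.07% of genes were. Il6 and Saa3 had 0 counts in all 4 libraries of that comparison, and Lcn2 had 5 and 1 counts against 0 and 2 (not called). Hp was at 1.65 and 2.33 CPM against 3.07 and 4.05 (log2 -0.83, SE 0.336, edgeR adjusted p = 0.319). Lif was at 18.1 and 22.5 CPM against 14 and 13.1 (log2 0.58, SE 0.296, edgeR adjusted p = 0.467; 0.016 with the replicate block). Neither gene's libraries overlapped between the groups, but with 2 libraries in each group the share of all genes without overlap was not counted. Socs3 (19.63 ± 0.2418 against 20.78 ± 3.999 CPM) and Stat3 (221.2 ± 16.2 against 214.3 ± 11.84) overlapped. Of 78 pathway genes, Nfkb1, an NF-kB subunit, was lower at 31.06 ± 5.287 against 53.79 ± 1.048 CPM (edgeR adjusted p = 0.0391), and Cntf, a ligand of the IL-6 family named although its mean level was under 1 CPM, was higher at 1.672 ± 0.401 against 0.2349 ± 0.01712 (edgeR adjusted p = 0.0396). Both calls were lost without any 1 of the 4 libraries. The macrophage markers summed to 27.7 to 32.5 CPM in these libraries against 8.69 to 10.4, with Cd68 at 15.77 against 0.43 CPM (edgeR adjusted p = 0.00576) and Csf1r at 2.889 against 0.1409 (edgeR adjusted p = 0.0262). Of the smooth muscle markers Myh11 was higher (5.493 against 0.9888 CPM; edgeR adjusted p = 0.0239). Epithelial markers summed to 72.5 to 95.4 CPM against 44.2 to 45.1, endothelial markers to 2.51 to 3.85 against 1.11 to 1.43 and hepatocyte markers to 1.1 to 2.51 against 0.198 to 0.49, with 0 of these called. The part of these markers in the results was not tested.

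With the GapmeR against long CASC15, in untreated cells of run 3, 5 of 6 members tested were lower and 0 higher. Among all 15103 genes, 25% were called in either direction and 12.8% lower. The members' median log2 fold change was -1.04 (the same with Il6 at its bound), against 0.02 over all genes. Il6 had 84, 44, 44 and 58 counts in the controls and 0 in all 4 knockdown libraries. This was at least 16.1-fold lower against 3 counts per library (edgeR adjusted p = 1.48e-07). Every alternative kept this call (13 of 13), with edgeR or DESeq2 adjusted p up to 1.04e-06. The control GapmeR libraries of run 2, also untreated, had 0 Il6 counts. Their means were 0.0494 CPM for Lcn2, 3.562 for Hp, 20.78 for Socs3, 214.3 for Stat3 and 13.56 for Lif. Untreated run 3 controls were at 1.149, 10.06, 32.03, 306.5 and 13.99 CPM in the same order. The untreated long knockdown was at 0.2293, 3.806, 19.94, 231.4 and 11.71 CPM. Levels across the runs were not tested.

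Among the secreted acute phase proteins, Hp was at 10.5, 11.5, 10.7 and 7.52 CPM in controls and at 4.39, 4.9, 4.13 and 1.8 in the knockdown (log2 -1.40, SE 0.345, edgeR adjusted p = 0.0057). Its groups did not overlap. Lcn2 was at 1.13, 1.46, 1.6 and 0.406 CPM in controls and at 0.374, 0.223, 0.109 and 0.212 in the knockdown, where it rests on 2 to 8 counts per library (log2 -2.25, SE 0.726, edgeR adjusted p = 0.0276). Its groups did not overlap either, but the call was lost without control replicate 2 or 3 and without knockdown replicate 2 or 3 (edgeR adjusted p 0.0591, 0.0656, 0.0662 and 0.0809), and with no filter on low counts (0.0645). Saa3 had at most 3 counts in any library of run 3 and was not tested there.

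Of the signalling members, Stat3 was at 325, 329, 308 and 264 CPM in controls and at 234, 236, 248 and 208 in the knockdown (log2 -0.41, SE 0.107, edgeR adjusted p = 0.0085), without overlap. Socs3 was at 38.8, 34.7, 33.6 and 21 CPM against 20.7, 20.4, 23.4 and 15.3 (log2 -0.68, SE 0.181, edgeR adjusted p = 0.00913). The P19 control, at 21 CPM, lay below the highest knockdown library, but within each of the 4 batches Socs3 was lower in the knockdown. Lif was at 12.1, 14.9, 14.6 and 14.3 CPM against 10.5, 10.2, 12.4 and 13.7, lower in 4 of 4 batches and not called (log2 -0.26, SE 0.114, edgeR adjusted p = 0.107). It was called without batch P19 (edgeR adjusted p = 0.0376) and without knockdown replicate 4 (0.0339).

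Under angiotensin II the same contrast gave 4 of 6 members lower and 0 higher, where 26.7% of genes were called and 13.3% were lower. The members' median log2 fold change was -0.89, against 0.01 over all genes. The controls of this contrast are other libraries than those of untreated cells. Il6 had 46, 51, 53 and 33 counts in controls and 4, 1, 2 and 0 in the knockdown (3.41% of the control level; log2 -4.78, SE 0.457, edgeR adjusted p = 8.75e-07). Hp was at 10.1, 12.4, 10.5 and 6.04 CPM against 3.65, 4.75, 4.74 and 2.94 (log2 -1.28, edgeR adjusted p = 0.0099), and Stat3 at 341, 325, 303 and 265 against 248, 244, 250 and 197 (log2 -0.39, edgeR adjusted p = 0.00992). None of these 3 genes overlapped.

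Socs3 under angiotensin II was at 36.6, 32, 31.8 and 22.1 CPM against 22.8, 22.2, 24.2 and 17.5. It was lower in 4 of 4 batches and just past the threshold (log2 -0.50, SE 0.181, edgeR adjusted p = 0.0486). Its call was kept under 5 of 13 alternatives, and it was lost without 7 of the 8 libraries (edgeR adjusted p 0.054 to 0.133; kept without control replicate 4) and with no filter on low counts (0.129), while with the replicate block its adjusted p was 0.000214. Lcn2 was at 1.39, 1.23, 0.818 and 0.185 CPM against 0.154, 0, 0.449 and 0.448, lower in 3 of 4 batches and higher in P19 (log2 -1.75, SE 0.728, edgeR adjusted p = 0.0827). It was called without batch P19 (edgeR adjusted p = 0.000732), without control replicate 4 (0.0401) and by DESeq2 (0.0419). Lif was at 12.84 ± 1.049 against 13.95 ± 0.5079 CPM (edgeR adjusted p = 0.479).

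**Figure D3:**
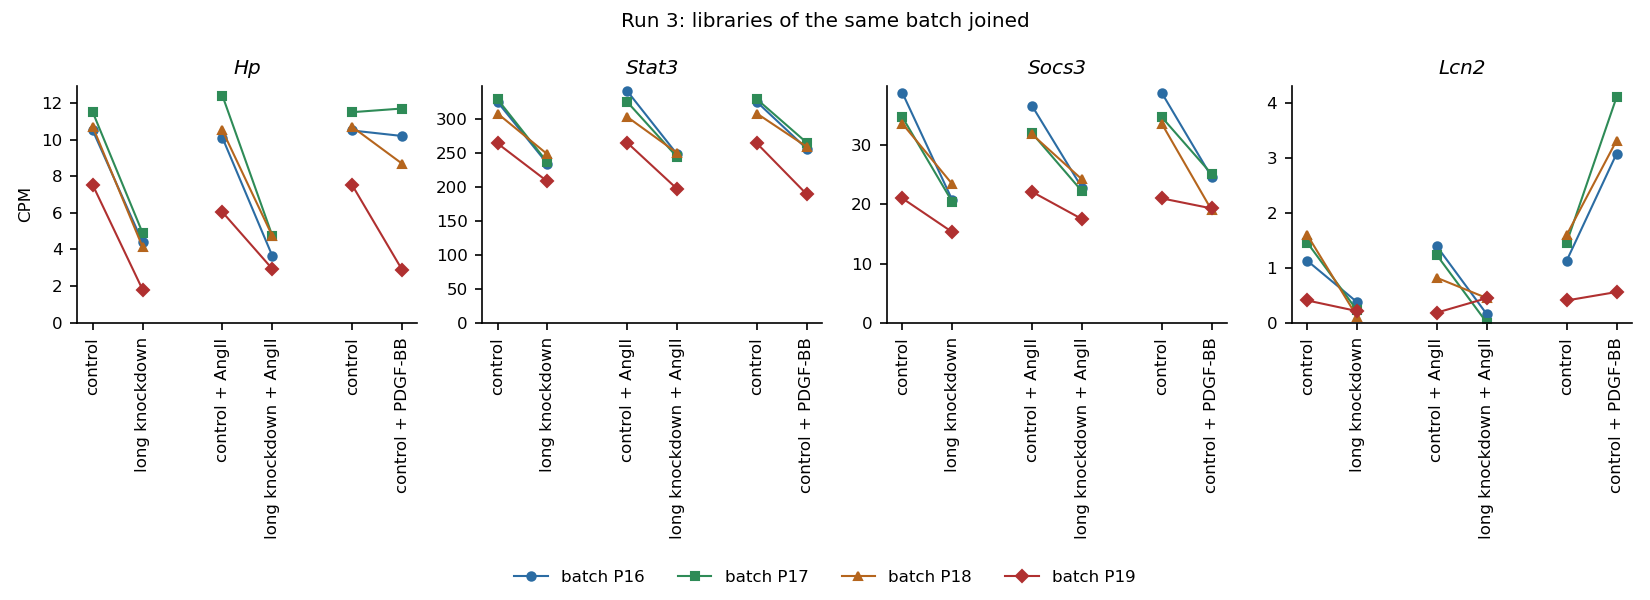
Levels in CPM of Hp, Stat3, Socs3 and Lcn2 in run 3, with a line joining the 2 libraries of each batch in 3 comparisons. The P19 control is the lowest untreated control for all 4 genes (Hp 7.52, Stat3 264, Socs3 21 and Lcn2 0.406 CPM), and the lines of Hp, Stat3 and Socs3 go down from control to long knockdown in 4 of 4 batches in both arms.

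Batch P19 stood apart in run 3. Its library was the lowest of its group in 5 of 5 groups for Hp and Stat3, in 4 of 5 for Il6 and Socs3, in 3 of 5 for Lcn2 and in 0 of 5 for Lif. Without P19, edgeR adjusted p in the untreated long knockdown was 1.08e-07 for Hp, 1.52e-07 for Stat3, 7.71e-07 for Socs3 and 0.000319 for Lcn2, with log2 fold changes of -1.29, -0.43, -0.74 and -2.51.

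Of 77 tested pathway genes, 24 were lower and 7 higher in the untreated long knockdown (15 higher and 37 lower with the replicate block), or 31.2% lower beside 12.8% of all genes (48.1% beside 20.6% with the block), with a median log2 fold change of -0.20, against 0.02 over all genes. Under angiotensin II 24 were lower and 8 higher (37 lower and 13 higher with the block). Receptors moved in both directions in untreated cells. Il6st was at 882.1 ± 78.27 against 1207 ± 138.6 CPM (log2 -0.45, edgeR adjusted p = 0.00268), and the LIF receptor chain Lifr at 14.96 ± 1.618 against 20.37 ± 3.815 (edgeR adjusted p = 0.0252; up to 0.0729 without 1 library). The IL-11 receptor Il11ra1 (1.37-fold; edgeR adjusted p = 0.00812) and the ligand Ctf1, cardiotrophin 1 (1.6-fold; edgeR adjusted p = 0.0129, and 0.112 without P19), were higher.

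Among JAK kinases, STATs and inhibitors, 6 of 22 were lower and 3 higher in untreated cells. Cish fell to 32.9% of control (2.226 ± 0.2289 against 6.768 ± 0.8887 CPM; edgeR adjusted p = 1.26e-05). The phosphatase Ptpn6 fell to 28.7% (edgeR adjusted p = 4.55e-05) and the kinase Jak3 to 38.7% (edgeR adjusted p = 0.0342; up to 0.102 without 1 library). Jak1, the main kinase of gp130, rose 1.34-fold to 257.6 ± 5.836 CPM (edgeR adjusted p = 3.14e-05), and the growth hormone pathway inhibitor Socs2 1.95-fold (edgeR adjusted p = 0.00381). The phosphatase Ptpn2 fell to 49.7% of control under angiotensin II (edgeR adjusted p = 4.66e-09) and to 56.5% in untreated cells (edgeR adjusted p = 6.73e-08). Under angiotensin II the inhibitor Pias1 was 1.22-fold higher (edgeR adjusted p = 0.0466; up to 0.168 without 1 library).

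Textbook STAT3 targets had 8 of 18 lower and 1 higher in untreated cells. Icam1 fell to 39.6% of control (9.543 ± 1.258 against 24.12 ± 4.683 CPM; edgeR adjusted p = 1.78e-05), Bcl3 to 53.2% (edgeR adjusted p = 0.0143; up to 0.0534 without 1 library) and the AP-1 gene Junb to 60.1% (edgeR adjusted p = 0.00657). Bcl2l1, an anti-apoptotic gene, was 1.34-fold higher (edgeR adjusted p = 0.0323; up to 0.103 without 1 library). Under angiotensin II 9 were lower and 1 higher, and Myc fell to 58.1% (edgeR adjusted p = 0.0011), beside 64.8% in untreated cells (edgeR adjusted p = 0.00609).

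Of 16 tested acute phase genes outside the members, 5 were lower and 1 higher in each of the untreated and angiotensin II comparisons. Cfb fell to 8.59% of control in untreated cells (0.4758 ± 0.1676 against 5.539 ± 2.178 CPM; edgeR adjusted p = 1.45e-05), Lrg1, a secreted glycoprotein, to 9.59% (edgeR adjusted p = 0.00277) and Lbp, the carrier of bacterial lipopolysaccharide, to 27.3% (31.49 ± 2.44 against 115.4 ± 31.77 CPM; edgeR adjusted p = 7.74e-06). Agt was 6.39-fold higher (2.861 ± 1.253 against 0.4475 ± 0.1398 CPM; edgeR adjusted p = 0.000282). Of 12 upstream input genes, 3 were lower and 0 higher (25%), where 25% of all genes were called in either direction and 12.8% lower. They were Tnfaip3, an NF-kB feedback inhibitor, at 69.2% of control (edgeR adjusted p = 1.56e-05), the IL-1 coreceptor Il1rap at 69.7% (edgeR adjusted p = 0.000573) and the TNF receptor Tnfrsf1a at 82.8% (edgeR adjusted p = 0.0152; up to 0.0658 without 1 library).

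Marker sums beside these results were as follows. All 7 neutrophil markers were at 0 in every untreated long knockdown library, and they summed to at most 0.042 CPM in the controls. The macrophage markers summed to 12.1 to 14.9 CPM against 10.6 to 14.8, with Ptprc and Adgre1 at 0 in both groups. The epithelial markers summed to 36.6 to 69.9 CPM against 97.6 to 129, with Cdh1 at 46.22 against 112.6 (edgeR adjusted p = 6.89e-05). Under angiotensin II the macrophage markers summed to 12.5 to 16.5 CPM against 10.2 to 12.9 (Cd14 at 13.48 against 10.32; edgeR adjusted p = 0.03) and the epithelial markers to 35.4 to 64.5 against 104 to 128. Fibroblast and smooth muscle markers moved in both directions in untreated cells. Of 4 tested fibroblast markers, Pdgfra (47.41 against 15.14 CPM) and Lum (3.828 against 0.9235) were higher and Col1a1 (1379 against 2149) was lower. Of 8 tested smooth muscle markers, Smtn (70.79 against 46.66) and Myh11 (0.9395 against 0.06387) were higher and Tpm2 (31.5 against 38.79) and Myl9 (4.535 against 15.74) were lower. Krt8, of the epithelial list, was at 0.2938 against 2.927. Under angiotensin II, Pdgfra (47.2 against 13.85 CPM), Smtn (73.91 against 50.04) and Myh11 (0.6845 against 0.1585) were likewise called higher and Col1a1 (1457 against 2061), Myl9 (4.719 against 15.38), Tpm2 (32.54 against 38.13), Cald1 (610.8 against 738.6), Cdh1 (46.53 against 116) and Krt8 (0.257 against 3.184) lower. The part of all these markers in the results was not tested.

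**Figure D4:**
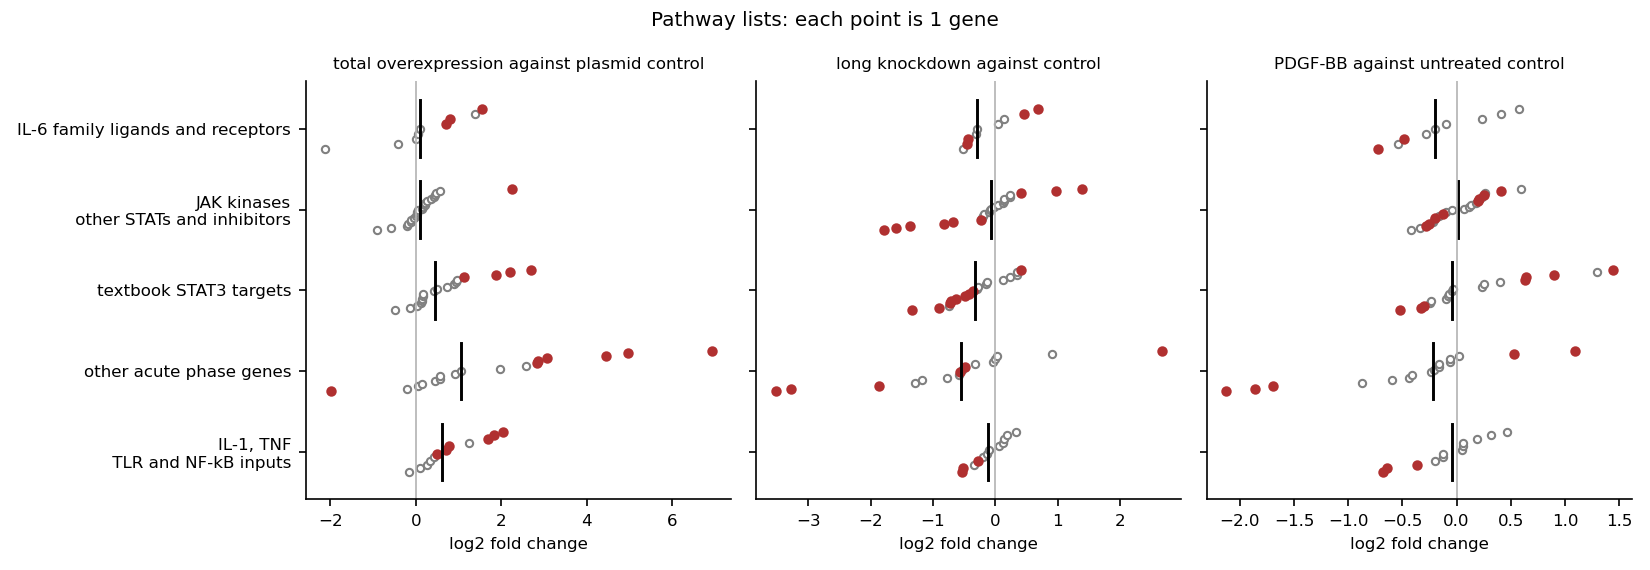
Log2 fold change of each tested gene in 5 pathway lists, in overexpression, in the untreated long knockdown and with PDGF-BB (each panel has its own horizontal scale); filled points passed an edgeR adjusted p of 0.05, open points did not, and black lines are list medians. The median of the other acute phase genes is 1.06 in overexpression and -0.55 in the long knockdown.

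No member was called with angiotensin II alone. In control cells edgeR called 0 of 6 members and 0% of genes. An unadjusted p under 0.05 was reached by 156 genes and 0 members, and DESeq2 called 1 gene, Gm4724, named after its value was seen. Il6 was at 3.53, 2.38, 2.19 and 1.96 CPM without and at 2.91, 2.5, 3.1 and 2.03 CPM with angiotensin II. Socs3 was at 38.8, 34.7, 33.6 and 21 without and at 36.6, 32, 31.8 and 22.1 with it. The libraries overlapped for both genes.

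In the long knockdown, angiotensin II also gave 0 of 6 members and 0% of genes by edgeR (174 genes and 1 member at an unadjusted p under 0.05; 0 genes by DESeq2). The 1 member was Il6, with 0 counts in all 4 untreated libraries and 4, 1, 2 and 0 counts under angiotensin II (edgeR adjusted p = 1). The interaction of angiotensin II and knockdown, which asks whether the knockdown's effect differs between the arms, gave 0 of 6 members and 0% of genes (166 genes and 1 member, Il6, at an unadjusted p under 0.05; 1 gene, again Gm4724, by DESeq2). Its estimates were 0.12 for Hp (SE 0.484), 0.18 for Socs3 (SE 0.255), 0.01 for Stat3 (SE 0.152) and 0.50 for Lcn2 (SE 1.05), each with an edgeR adjusted p of 1.

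PDGF-BB, a mitogen of smooth muscle cells, gave 2 of 6 members lower and 1 higher in control cells, where 43.6% of genes were called, so the share of members called was close to that of all genes. Their median log2 fold change was -0.21, against -0.02 over all genes. Stat3 was at 256, 265, 259 and 189 CPM, against 325, 329, 308 and 264 without treatment (log2 -0.34, SE 0.107, edgeR adjusted p = 0.0145). The P19 library was the lowest of the treated ones, and the lowest control, P19 at 264, was below the highest treated library at 265. Socs3 was at 24.6, 25.1, 19 and 19.3 CPM against 38.8, 34.7, 33.6 and 21, lower in 4 of 4 batches (log2 -0.54, SE 0.18, edgeR adjusted p = 0.0206). The Socs3 call was lost without control replicate 1 (0.0631), without PDGF-BB replicate 3 (0.0647) and with no filter on low counts (0.0505).

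Lif was at 15.7, 15.8, 20.9 and 16 CPM with PDGF-BB against 12.1, 14.9, 14.6 and 14.3, higher in 4 of 4 batches without overlap (log2 0.29, SE 0.113, edgeR adjusted p = 0.0446). This call was lost without 5 of the 8 libraries, namely control replicates 1, 2 and 3 (0.183, 0.0695 and 0.0543) and PDGF-BB replicates 3 and 4 (0.188 and 0.0696), and with no filter on low counts (0.135). Lcn2 was at 3.08, 4.11, 3.32 and 0.56 CPM against 1.13, 1.46, 1.6 and 0.406, higher in 4 of 4 batches (log2 1.29, SE 0.591, edgeR adjusted p = 0.0855). It was called with the replicate block (edgeR adjusted p = 0.0415), without P19 (0.00597) and without PDGF-BB replicate 4 (0.0241). Il6 (2.253 ± 0.4795 against 2.517 ± 0.6952 CPM; edgeR adjusted p = 0.706) and Hp (8.364 ± 3.844 against 10.06 ± 1.754; edgeR adjusted p = 0.545) were not called.

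**Figure D5:**
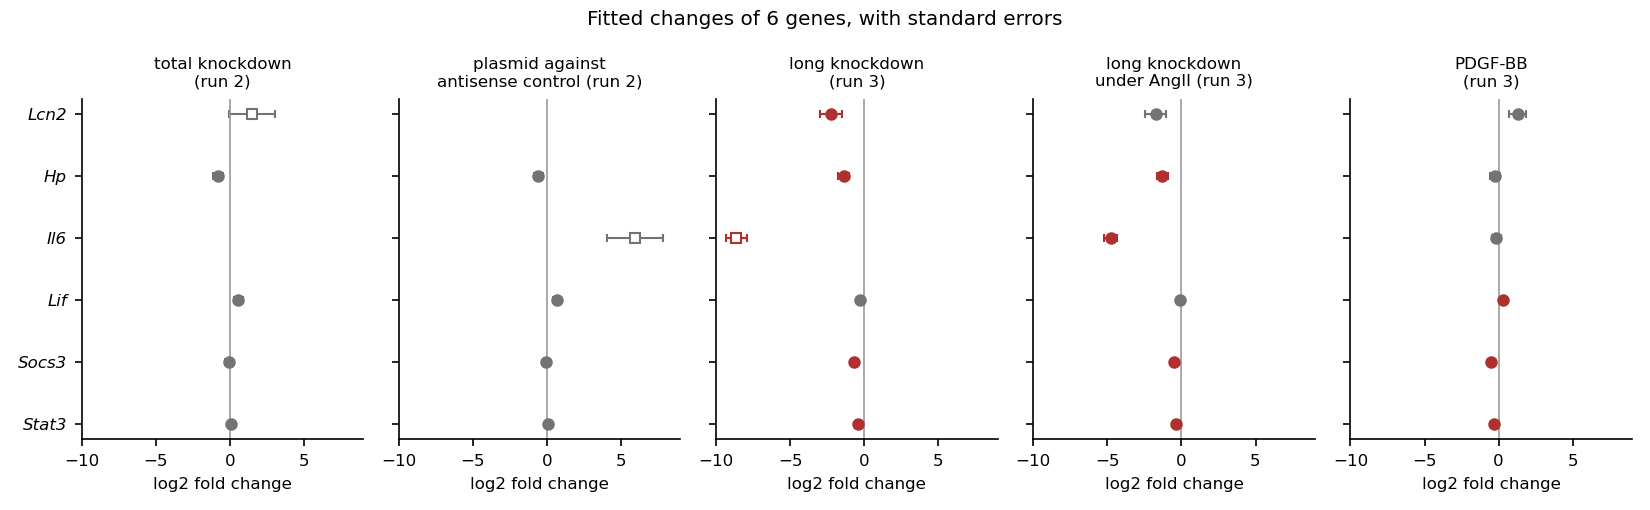
Fitted log2 fold changes of 6 genes with standard errors in 5 comparisons; red marks an edgeR adjusted p under 0.05, grey none, and open squares a gene with one group at or below 3 counts in every library, whose fitted size depends on the model's prior. Il6 lies lowest in both long knockdown panels, at -4.78 under angiotensin II, and Stat3 moves little, from -0.41 to 0.09.

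Pathway genes under PDGF-BB were 10 higher and 15 lower of 77 tested (21 and 23 with the replicate block). That is 32.5% of these genes, below the 43.6% of all genes called, and the STAT3 targets, at 38.9%, also lie under that share. With the block the order turns, at 57.1% of these genes and 61.1% of the STAT3 targets against 54.5% of all genes, so the values describe single genes. Of 9 ligands and receptors, Il6st fell to 60.6% of control (731.2 ± 64.22 against 1207 ± 138.6 CPM; edgeR adjusted p = 1.09e-05) and Il6ra to 71.3% (edgeR adjusted p = 0.0277; up to 0.0912 without 1 library). STAT3 targets had 4 higher and 3 lower of 18: Timp1, a protease inhibitor, rose 2.71-fold (27.54 ± 2.809 against 10.15 ± 0.6834 CPM; edgeR adjusted p = 2.85e-08), Fos 1.87-fold (edgeR adjusted p = 0.00863) and Junb 1.55-fold (edgeR adjusted p = 0.00808), while the kinase Pim3 fell to 69.3% (edgeR adjusted p = 0.000138).

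Among the acute phase genes outside the members, the zinc transporter Slc39a14 rose 1.44-fold with PDGF-BB (edgeR adjusted p = 3.23e-06). Complement C4b fell to 27.5% (25.62 ± 13.84 against 93.16 ± 38.47 CPM; edgeR adjusted p = 0.0171). Of the input genes, Tlr2 (62.3%; edgeR adjusted p = 9.45e-05), Tnfaip3 (63.9%; edgeR adjusted p = 4.66e-07) and Nfkbia (77.5%; edgeR adjusted p = 0.00844) fell and 0 rose. Cdh1 was at 173.8 against 112.6 CPM in the same comparison (edgeR adjusted p = 0.00992). Of 8 tested smooth muscle markers 2 were lower (Acta2, 110.5 against 212.1; Cald1, 560.8 against 723) and 2 higher (Smtn, 95.5 against 46.66; Tpm2, 54.96 against 38.79). Of 4 tested fibroblast markers 3 were lower (Dcn, 664.3 against 1592; Pdgfra, 3.104 against 15.14; Lum, 0.1712 against 0.9235) and 1 higher (Col1a1, 3016 against 2149), and the endothelial marker Pecam1 was lower (0.3716 against 1.192). The part of these markers was not tested.

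The overexpression and untreated long knockdown comparisons share no libraries. Of the 20 pathway genes called higher in overexpression, 9 were called lower in the long knockdown (Bcl3, Cebpb, Cebpd, Cfb, Cish, Icam1, Il6st, Lbp and Lrg1), 0 higher and 11 not called, among them Steap4, C3, Tlr2 and Nfkbia. That is 45% of the 20, beside 37.5% of all 168 genes called higher in overexpression (63 lower and 6 higher in the knockdown), so by this share the pathway genes lie near the background. The 9 are 37.5% of the 24 pathway genes called lower in the knockdown, while the 63 are 3.27% of all 1928 genes called lower there. The lists were written with these results known, so neither share is independent support. The 1 gene lower in overexpression, Agt, was higher in the knockdown. Of the 9, Bcl3 and Cebpd kept the overexpression call in each of the 6 fits without 1 library. Those of Cebpb, Cfb, Cish, Icam1, Il6st, Lbp and Lrg1 were each lost in at least 1 fit (largest edgeR adjusted p from 0.0527 for Icam1 to 0.168 for Lrg1), as was that of Agt (up to 0.0992). In the knockdown, Bcl3 (edgeR adjusted p up to 0.0534) and Cebpb (up to 0.149) lost the call in at least 1 of 8 such fits. A difference in size between the runs was not tested.

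Pearson correlations of log2(CPM + 1) were taken over the 30 libraries, with TMM scaling over both runs together. The 12465 genes compared left out the members and symbols with Rik or with Gm and a number. The gene read as CASC15 was thus also left out. Among the genes compared, those most like Lcn2 were Slc11a2 (0.959), Zc3h12a (0.956) and Steap4 (0.953). For Il6 they were AW112010 (0.931), Abcc3 (0.907) and Icam1 (0.906), and for Stat3 they were Il6st (0.888), Fndc7 (0.883) and Gda (0.878). For Ptx3, at or near zero throughout, the highest value was 0.631 for Rpl36-ps12. With a pseudocount of 0.25, Il6st (0.888), AW112010 (0.933) and Slc11a2 (0.935) stayed first, and Ptx3 had Golph3l first (0.629). All points share runs, batches and groups, so these values only describe how the libraries line up.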

How the data were processed

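Expected counts per gene were deposited for each library and are not scaled to depth. The submitters' processing notes name STAR 2.7.11b, RSEM 1.3.1 and the builds GRCm39 and mm10, without a role for each; RSEM divides reads shared between genes, so near-identical copies are uncertain. Strandedness is not given in the sources used here. A GENCODE annotation gave symbols to 51486 of 78334 identifiers, which held 98.7% of all counts. Exon lengths came from the same annotation.

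Expected counts were rounded. Genes were kept by filterByExpr (minimum count 10, minimum total 15), leaving 15350 genes in run 2 and 15103 in run 3, and each run was fitted with edgeR 4.0.16 (R 4.3.3, limma 3.58.1) by its quasi-likelihood test with TMM factors and a coefficient per group, without the replicate block. A gene was called at a two-sided Benjamini-Hochberg adjusted p under 0.05 over all genes tested. CPM is given per library or as mean ± SD. With few counts, folds use 3 counts per library as a floor, and ratios against 1 to 3 counts have exact 95% counting intervals; both reflect counting error and nothing else. The code was tested on simulated data.

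The labels tie each replicate number to a batch, so numbers pair libraries: after removing group means, same-numbered libraries of other groups had a mean correlation of 0.328 in run 2 (11 of 13 pairs over 0.1) and 0.306 in run 3 (37 of 40), against -0.172 and -0.0852 for other pairs. The blocked fit is an alternative.

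Alternatives were the replicate block, DESeq2 1.42.0, its size factors in edgeR, no filter on low counts, leaving out each library and, added after the data were seen, leaving out batch P19. The members, pathway lists and marker lists were chosen with earlier results of these data known. Named pathway genes are, per list and comparison, at most 3 called in each direction by largest change, with a mean of at least 1 CPM; others are marked, and some genes that the rule names are not reported here. CASC15 was read from 2610307P16Rik, by its place beside Sox4 and its rise in overexpression. Some titles number CASC15 upward across replicates, and groups were taken from the library name.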

Additional observations from a re-analysis of the deposited data

Results flagged for a closer look

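Among 30 gene and group combinations of 4 libraries, 3 had 1 library far from the others, where chance gives about 1 in 20. Il6 in the untreated long knockdown was at 0 in all 4 libraries, so this combination could not be flagged. Lif was at 20.9 CPM in PDGF-BB replicate 3 (batch P18), and the others were at 15.7 to 16. Stat3 was at 189 CPM in PDGF-BB replicate 4, against 256 to 265, and at 197 CPM in replicate 4 of the long knockdown under angiotensin II, against 244 to 250. Both of these Stat3 libraries are of batch P19.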

How the results depend on the processing

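With the replicate block, calls over all genes were 2209 in the total knockdown (317 without the block), 459 for the control plasmid (181), 2721 in overexpression (253), 6126 in the untreated long knockdown (3783) and 6238 under angiotensin II (4033). Pathway genes called with the block were 9, 37, 52 and 50 in total knockdown, overexpression and both long knockdown arms, and 44 with PDGF-BB. Members called with the block rose from 0 to 1 in the total knockdown (Lif). With DESeq2, calls were 719 in the total knockdown (4 pathway genes), 347 for the plasmid and 807 in overexpression, and 1 gene each for angiotensin II in control cells and for the interaction. With no filter on low counts they were 1325 (8 pathway genes), 1106 (20 pathway genes and 1 member, Il6) and 1363 (33 pathway genes) in the 3 comparisons of run 2, and 1 member with PDGF-BB. Without batch P19, calls were 1041 in the total knockdown (4 pathway genes), 844 in overexpression and 6062 in the untreated long knockdown (48 pathway genes), with 3 pathway genes for the plasmid and 40 for PDGF-BB. P19 holds no library of the total knockdown comparison, so its change there comes from the other groups that share the fit.

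Leaving out 1 library gave 4 to 188 genes in the total knockdown (0 to 0 pathway genes), 67 to 277 for the plasmid (2 to 6 pathway genes), 86 to 867 in overexpression (7 to 30 pathway genes; 5 to 7 members without overlap), 2889 to 4882 in the untreated long knockdown (4 to 6 members, 25 to 36 pathway genes), 3042 to 4880 under angiotensin II (3 to 5 members, 25 to 35 pathway genes) and 5601 to 6624 with PDGF-BB (1 to 3 members, 18 to 28 pathway genes; 1 member without control replicate 1 or PDGF-BB replicate 3). In run 2 the lowest count came without GapmeR control replicate 1 for the total knockdown and replicate 2 for the plasmid, and without overexpression replicate 2 for overexpression; the highest there, 867, came without control plasmid replicate 3. Where 1 library was left, it was assumed to vary like the other groups.

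Alternatives for single members were run in 5 comparisons, not for angiotensin II alone or its interaction. There, the values whose signs turned were not called, and each turned with 1 library left out. In the total knockdown the log2 fold change ran from -0.0393 to 0.118 for Stat3 (below 0 without replicate 1 of either group; -0.0161 without the control's), from -0.273 to 0.119 for Socs3 (above 0 without control replicate 2) and from -0.0663 to 4.56 for Lcn2 (below 0 without knockdown replicate 1). For the plasmid, Socs3 ran from -0.251 to 0.141 (above 0 without GapmeR control replicate 2 and, at 0.0371, without plasmid replicate 1). For PDGF-BB, Il6 ran from -0.285 to 0.0286 (above 0 without control replicate 1). The replicate block changed no other call of a member than those of Lif in the total knockdown and Lcn2 with PDGF-BB. Depth limits Saa1, Saa2, Ptx3 and, outside overexpression, Saa3 and Lcn2, which rest on few counts. In the total knockdown comparison Lcn2 had 6 against 2 counts in all and passed the filter only through the overexpression libraries.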
